A study of Mus musculus with 30 samples.

Results

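The genes described here encode the translation initiation factors eIF1 to eIF6 of the mouse. They were taken by symbol: every probe set whose annotation gave exactly 1 symbol starting with Eif1 to Eif6, without the eIF2 alpha kinases, the 4E-binding proteins, the old Argonaute symbols (Eif2c) and the eIF4E transporter Eif4enif1. This gave 40 genes (111 of 45101 probe sets) among 18193 genes with a single symbol, and each gene was read from its probe set with the highest mean signal over all arrays. Of the 40, 39 were tested among 13246 genes. The exception was Eif4a3, an RNA helicase of the exon junction complex, whose only probe set lay at the lowest reported value on 22 of 24 pool arrays. By factor, the tested genes were 4 of eIF1, 5 of eIF2, 5 of eIF2B, 11 of eIF3, 4 of eIF4A, 4B and 4H, 3 of eIF4E, 2 of eIF4G, 4 of eIF5, 5A and 5B, and eIF6. Eif1, Eif2s1, Eif3g, Eif3j1, Eif3j2 and Eif4g1 had no probe set annotated to them alone and were not analysed here.

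RNA came from undifferentiated R-1 mouse embryonic stem cells (ESC), kept with the cytokine LIF, and from embryoid bodies (EB), the differentiating aggregates that these cells formed without LIF, at day 5. There were 3 cultures of each state, and all cells received cycloheximide at 150 ug/ml for 15 min, which holds ribosomes on their mRNAs. Unfractionated (total) RNA and 4 pools made from 12 sucrose gradient fractions were hybridised to 30 arrays. The sources used here do not say which end of the gradient pool 1 came from, so pools are given by number only. All cultures are of 1 cell line, and an embryoid body is a mixture of cell types, in which fewer cells of a type and less RNA per cell cannot be told apart.

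Initiation factors load a ribosome onto an mRNA. eIF2 brings the initiator tRNA and eIF2B recharges eIF2 with GTP; eIF1, eIF1A and eIF5 control the choice of the start codon; eIF3 is a large scaffold on the small ribosomal subunit; eIF4E binds the mRNA cap, eIF4G bridges it to the ribosome, and the helicase eIF4A with eIF4B and eIF4H unwinds the leader. eIF5B joins the ribosomal subunits, eIF5A acts mainly in elongation, and eIF6 keeps free large subunits apart from small ones. Many mRNAs of the translation machinery begin with a run of pyrimidines, the feature through which mTOR signalling acts on their translation.

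The mean deposited signal of an array ranged from 72.4 to 578, and the lowest correlation between replicate arrays was 0.914 (EB pool 2). Between 18.3% and 59.1% of probe sets lay at the lowest value on a pool array. The 15 probe sets for bacterial control RNAs averaged between 7.77 and 8.54 on every array (deposited log2 signal), while the mean over the mouse probe sets ranged from 3.99 to 6.43; how the arrays were scaled is not given in the sources used here. On this deposited scale most genes were higher in EB than in ESC, with a median difference in total RNA of 0.96 (log2). Values below are therefore given mainly relative to all genes, after quantile normalization, with the deposited scale beside them. Of the marker genes tested, 4 of 5 of primitive endoderm and 1 of 4 of primitive streak were higher in EB, 2 of 4 neural genes were lower and 2 of 10 stem cell genes were higher and 1 lower (limma, 0.05 after adjustment). The 2 feeder fibroblast genes tested did not pass, and the other 4 of that list, Col1a1 among them, were too dim to test. In total RNA the summed deposited signal of the endoderm markers was 59.9 to 117 in ESC and 618 to 734 in EB, and that of the 10 stem cell markers 29300 to 32100 and 55500 to 71200. RNA integrity also moved with the state: the log2 ratio of the 3′ to the 5′ actin probe set in total RNA was 2.77 to 3.31 in ESC and 2.06 to 2.5 in EB. It averaged 4.06 against 2.55 in pool 1 and 2.3 against 0.74 in pool 4, and the states did not overlap in total RNA or in any pool (exact permutation p = 0.1, the smallest that 3 against 3 cultures allow). The part of cell mixture and of RNA integrity in the differences below was not tested.

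The starts of 8 eIF3 genes are shown because the mRNAs of eIF3 subunits lay in different parts of the gradient. RefSeq promoters (GRCm38.p6) held a start for 32 of the 40 genes, not among them Eif3e, Eif3h and Eif3i, and each line gives 30 bases on the gene's strand, 14 before the annotated start and 16 from it on. Capitals mark the longest run of C or T.
Eif3f: ctgttctaggCTCTCTCTCTTTCTCggcaa
Eif3l: cgcggagTTCTTCTTCCgctctctcccacg
Eif3m: TTTCCggtcggcgtgtttctggatcggagc
Eif3k: aaacaaccggcgctggtgctgaaagcgCCT
Eif3a: ggggCTCgggcggcggcgctgccgccgcga
Eif3b: tagcggcgcgcggtgaCTTCTgggagtcgg
Eif3c: tcaCCTgctcagagggactcggcagcttag
Eif3d: tggtagggccaTTTacgacagcgctggtcg
Eif2s3x: tgccgagcaTTTTCCTTTTCTCTCCgagca
Eif2b5: CTTCCTCTTTCTCTCCCTgcaactacacct

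The windows lie at chr7:108934401-108934430 (plus strand) for Eif3f, chr15:79075209-79075238 (plus) for Eif3l, chr2:105017012-105017041 (minus) for Eif3m, chr7:28981873-28981902 (minus) for Eif3k, chr19:60790678-60790707 (minus) for Eif3a, chr5:140419291-140419320 (plus) for Eif3b, chr7:126566351-126566380 (minus) for Eif3c and chr15:77970809-77970838 (minus) for Eif3d. Those of Eif2s3x and Eif2b5, shown as the other members with a run over the start, lie at chrX:94212636-94212665 (minus) and chr16:20498803-20498832 (plus). The run covered 15 bases across the start of Eif3f, 10 at Eif3l, 16 at Eif2s3x and 18 at Eif2b5. In bases from the annotated start, negative before it, they spanned -4 to 11, -7 to 3, -5 to 11 and -14 to 4. The runs of Eif3l and Eif2b5 thus lay mostly before the start, and that of Eif2b5 began at the window's edge. A run of at least 8 C or T bases, searched on the gene's strand only, stood in the window of 7 of the 32 members. It lay over the start base in 4 members, Eif3f, Eif3l, Eif2s3x and Eif2b5. Of 32851 starts in the table, chr18 included, 11.8% and 3.75% had such runs. Members were counted by gene, at any of their starts outside chr18, and the table by start, so these shares differ in unit and in chromosomes. The runs of Eif3a, Eif3c, Eif3d and Eif3k were 3 bases long.

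In total RNA, 4 initiation factor genes were called higher and 1 lower in EB than in ESC relative to all genes, 5 of 39 (12.8%). Of all genes tested 12.3% were called, 6.49% as higher and 5.84% as lower (limma, adjusted over 13246 genes). The genes called higher were Eif2s3y, Eif4a2, Eif5 and Eif2b3, by 1.38- to 1.52-fold, and the gene called lower was Eif1ax. The median difference of the 39 was -0.01, against 0.01 over all genes (log2), and their range was -0.75 to 0.6. On the deposited scale 39 of 39 were higher in EB, where 79.2% of all genes were called and 78.9% were higher, by 0.39 to 1.88 with a median of 1.11.

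**Figure D1:**
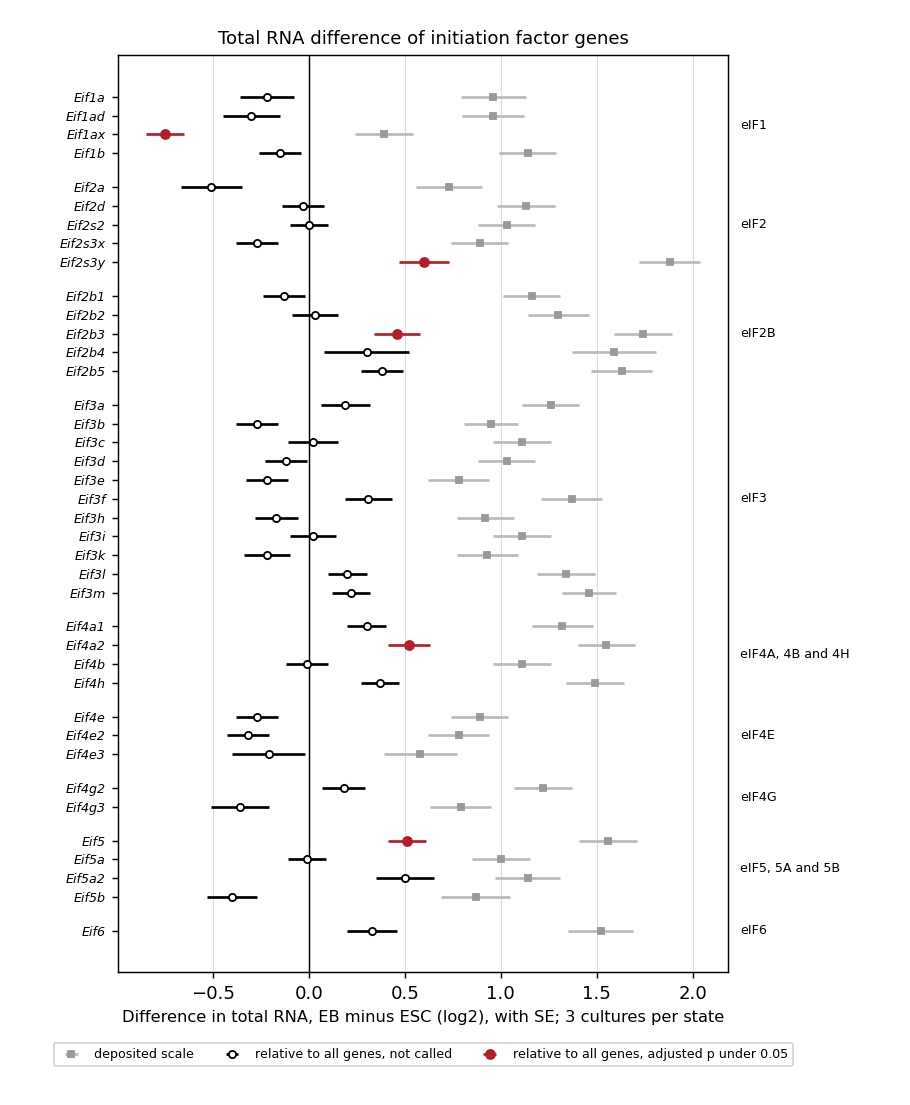
Difference in total RNA between EB and ESC for the 39 tested initiation factor genes, by factor (log2, horizontal axis; points are fitted differences, bars their SE, 3 cultures per state). Relative to all genes the differences lie between -0.75 (Eif1ax) and 0.6 (Eif2s3y), and filled red points mark the 5 with an adjusted p under 0.05; grey squares give the deposited scale, where 39 of 39 lie above 0.

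Of the eIF1 group, Eif1ax, the X-linked gene of eIF1A, which helps the ribosome scan for the start codon, stood at 11.45, 11.45 and 11.39 in the ESC cultures and at 10.70, 10.71 and 10.64 in EB (log2 total RNA signal relative to all genes). Every EB culture lay below every ESC culture. The difference was -0.75 ± 0.10 (SE, n = 3 per state; adjusted p = 0.00722). The 3 probe sets of Eif1ax differed by -0.75 to 0.32, and the mean over them gave -0.20 (adjusted p = 0.279), which ends the call. Eif1a, its near-identical autosomal copy, differed by -0.22 ± 0.14 (adjusted p = 0.332), and probe sets of such copies may share signal.

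In eIF2, Eif2s3y, the Y-linked gene of the gamma subunit, which holds GTP and the initiator tRNA, stood at 8.57, 8.40 and 8.75 in ESC and at 9.28, 9.18 and 9.06 in EB. The groups did not overlap, and the difference was 0.60 ± 0.13 (adjusted p = 0.0316). Its X-linked counterpart Eif2s3x, close in sequence, differed by -0.27 ± 0.11 (adjusted p = 0.141). Eif2a, which encodes a separate protein, eIF2A, that can deliver initiator tRNA without the eIF2 complex, differed by -0.51 ± 0.16 (adjusted p = 0.0822). In eIF2B, the exchange factor of eIF2, Eif2b3, the gene of the gamma subunit, stood at 8.49, 8.34 and 8.59 in ESC and 8.92, 8.87 and 9.02 in EB, a difference of 0.46 ± 0.12 (adjusted p = 0.0456). Eif2b5, the catalytic subunit itself, differed by 0.38 ± 0.11 (adjusted p = 0.068).

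Eif4a2, the second cytoplasmic copy of the eIF4A helicase, stood at 12.11, 11.98 and 12.19 in ESC and at 12.60, 12.65 and 12.61 in EB. The difference was 0.52 ± 0.11 (adjusted p = 0.0259). Eif4a1, the main copy, differed by 0.30 ± 0.10 (adjusted p = 0.109), also without overlap. Eif5, the GTPase-activating protein of eIF2, stood at 11.83, 11.97 and 11.84 in ESC and 12.43, 12.42 and 12.33 in EB, a difference of 0.51 ± 0.10 (adjusted p = 0.0253). Its 5 probe sets ranged from -0.82 to 0.95, 4 of them with the sign of the chosen one. Eif5a, Eif4g2, the scaffold without a cap-binding partner, and Eif6 differed by -0.01 ± 0.10 (adjusted p = 0.959), 0.18 ± 0.11 (adjusted p = 0.324) and 0.33 ± 0.13 (adjusted p = 0.137).

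Of the 11 eIF3 subunit genes, 0 were called in total RNA (limma), where 12.3% of all genes were. An unadjusted p under 0.05 was reached by 2 of the 11 and by 3983 of 13246 genes. The 11 differed by -0.27 to 0.31, with a median of 0.02. With a variance trend and robust weighting the same test called 2 higher and 2 lower. Eif3e and Eif3h differed by -0.22 ± 0.11 (adjusted p = 0.228) and -0.17 ± 0.11 (adjusted p = 0.341). The 3 cap-binding genes Eif4e, Eif4e2 and Eif4e3 lay at -0.27, -0.32 and -0.21, and did not pass the threshold (adjusted p = 0.155, 0.0957 and 0.501). The number of members called in total RNA rested on single cultures: leaving out ESC replicate 1 or any 1 EB culture left 1 call, Eif1ax, leaving out ESC replicate 2 left 2 calls and leaving out ESC replicate 3 left 3.

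Position on the gradient was measured as the pool ratio, the log2 signal averaged over pools 3 and 4 of a culture, from which its average over pools 1 and 2 was taken. Relative to all genes, 0 stands for the position of the typical gene. Within ESC, 13 of the 39 members were called above 0 and 9 below 0 (56.4%, where 32.4% of all genes were called, 18% above and 14.4% below). Within EB, 17 were called above and 10 below (69.2%, where 40.4% of all genes were called, 24.6% above and 15.8% below). Called or not, 22 of the 39 lay above 0 in each state. With arrays centred on their medians in place of quantile normalization, the calls within ESC were 10 above and 17 below (11.8% and 14.4% of all genes). On the deposited scale they were 7 above and 18 below within ESC (6.97% and 18.4% of all genes) and 30 above and 2 below within EB (60.2% and 3.99%). The 2 states are separate arrays, but they were normalized together and share an estimate of the spread. Relative to all genes, 12 members were called above 0 in both, 92.3% of those in ESC and 70.6% of those in EB. Below 0, 4 were called in both, 44.4% and 40% of those in each, and 0 were called in opposite directions. The share of all genes called alike in both states was not counted, so these percentages have no background to be read against.

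Among the genes shifted towards pools 3 and 4 in both states was Eif6, with ratios of 1.37, 1.11 and 0.95 in the ESC cultures and 1.00, 1.40 and 1.25 in EB. Its mean was 1.14 ± 0.12 in ESC and 1.21 ± 0.12 in EB (SE; adjusted p = 6.17e-05 and 1.57e-05). Eif2b4, the delta subunit of eIF2B, had means of 1.17 ± 0.14 and 0.69 ± 0.14, and Eif4g3, a homologue of the eIF4G scaffold, of 1.04 ± 0.13 and 0.81 ± 0.13. With the mean of its probe sets Eif4g3 was not called in EB (0.17, adjusted p = 0.287). Eif4h, which stimulates eIF4A, had 0.70 ± 0.11 and 0.81 ± 0.11, and Eif2b3 0.60 ± 0.11 and 0.64 ± 0.11. Each of these exceeded 0 past the threshold in both states; Eif4h did not in ESC with the mean of its probe sets (0.28).

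On the other side, towards pools 1 and 2, lay Eif2a at -0.58 ± 0.11 in ESC and -0.74 ± 0.11 in EB, Eif1b at -0.47 ± 0.10 and -0.43 ± 0.10, and the cap-binding gene Eif4e at -0.43 ± 0.12 and -0.67 ± 0.12. The cultures of Eif4e read -0.35, -0.54 and -0.40 in ESC and -0.92, -0.52 and -0.56 in EB. Eif4e2, a cap-binding protein that represses translation, lay at -0.27 ± 0.11 in ESC (adjusted p = 0.084) and -0.69 ± 0.11 in EB (adjusted p = 0.00041). Relative to all genes the 3 eIF4E genes were all called below 0 in EB, the call of Eif4e3 (-0.38) being lost without any 1 ESC culture or without EB replicate 1 or 2. Their other probe sets above the filter gave EB ratios from -0.6 to 0.16 for Eif4e2 and from -0.32 to -0.08 for Eif4e. On the deposited scale, where the median of all genes in EB was 0.56, the direction in EB turned: Eif4e, Eif4e2 and Eif4e3 lay at 0.19, 0.16 and 0.12, Eif2a at 0.27 and Eif1b at 0.55. Eif1a and Eif1ax were called below 0 in ESC, at -0.86 ± 0.12 and -0.58 ± 0.11, and stood at -0.03 ± 0.12 and -0.10 ± 0.11 in EB. The calls of Eif4e and Eif1b moved with scaling or culture: Eif4e was not called in ESC without ESC replicate 2 or 3, and Eif1b not in EB with median centring.

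The 11 eIF3 subunit mRNAs, whose proteins form a single complex, lay on both sides of 0. Relative to all genes they ran from -0.33 to 1.12 in ESC and from -1.12 to 1.02 in EB. The 39 members ran from -0.86 to 1.17 and from -1.12 to 1.21. Eif3a and Eif3c, large subunits of the scaffold, Eif3b and Eif3i, of the module near the mRNA entry side, and Eif3d, which can bind caps of selected mRNAs, all lay above 0 in both states. Their ratios were 0.76, 1.04, 0.83, 0.78 and 1.12 in ESC and 1.0, 1.02, 0.92, 0.39 and 0.73 in EB, each past the threshold. In EB the call of Eif3i was lost with median centring (0.33), with the mean of its probe sets (0.25) and without EB replicate 3, and in ESC that of Eif3a with median centring (0.36, adjusted p = 0.0705). Eif3f and Eif3h, the MPN-domain subunits, together with Eif3l and Eif3m, lay on the opposite side in EB: at -1.11, -1.12, -0.51 and -0.45, each past the threshold. In ESC the same genes stood at -0.33, -0.15, -0.10 and 0.02, of which only Eif3f was called, and not without any 1 ESC culture. In EB the call of Eif3l was lost with the mean of its probe sets (-0.26) and that of Eif3m with median centring (-0.21). Median centring and the deposited scale kept the first set above 0 in both states, with medians of 0.72 and 1.05 (median centring) and 0.61 and 1.74 (deposited). For Eif3f, Eif3h, Eif3l and Eif3m the median in EB was -0.81 relative to all genes and -0.79 with median centring. On the deposited scale it was -0.10, where all genes had a median of 0.56 and 2 of these 4 lay above 0. Eif3e and Eif3k, in neither set, stood at 0.11 and 0.78 in ESC and at -0.09 and 0.03 in EB, relative to all genes. With them added, the EB median of the second set was -0.48 on that scale. Both sets follow calls on these same arrays, so their medians give no separate support for the split.

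**Figure D2:**
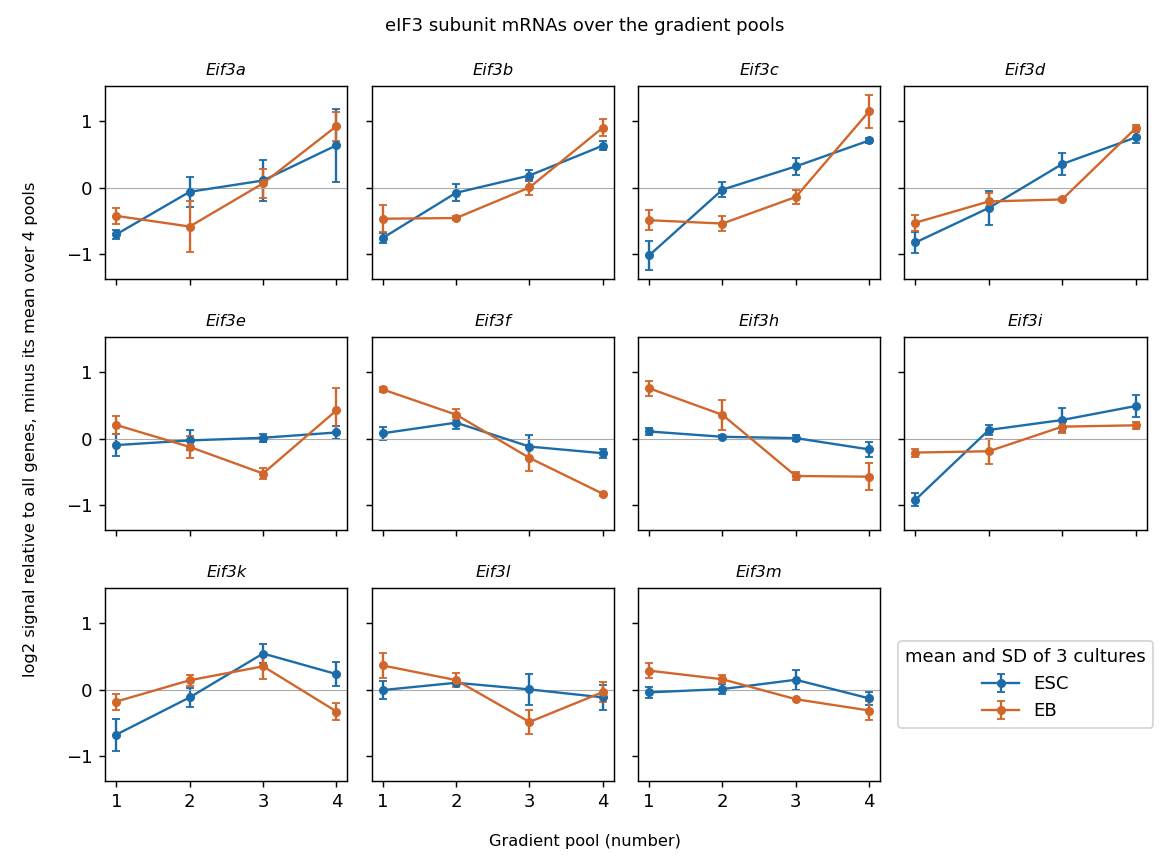
Profiles of the 11 eIF3 subunit mRNAs over the 4 gradient pools in ESC (blue) and EB (orange): log2 signal relative to all genes, minus each gene's own mean over the pools of that state (points are means and bars SDs of 3 cultures). In EB, Eif3f falls from 12.92 in pool 1 to 11.35 in pool 4 while Eif3c goes from 10.14 to 11.78 before centring; levels are comparable only within a gene.

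The profiles over the pools, with all pool arrays normalized together, give these positions pool by pool. In EB, Eif3h read 12.23 ± 0.11, 11.83 ± 0.23, 10.91 ± 0.06 and 10.90 ± 0.20 in pools 1 to 4 (mean ± SD, n = 3); in ESC it read 11.46 ± 0.05, 11.38 ± 0.03, 11.36 ± 0.04 and 11.19 ± 0.11. The means spanned 0.27 over the ESC pools and 1.32 over the EB pools, with pool 1 highest and pool 4 lowest in both. Eif3f read 12.07, 12.23, 11.87 and 11.77 in ESC and 12.92, 12.54, 11.89 and 11.35 in EB. Eif3c rose instead, from 9.87 in pool 1 to 11.60 in pool 4 in ESC and from 10.14 to 11.78 in EB. Over all members, pool 4 held the highest value for 10 of 39 in ESC (25.6%; 23.8% of all genes) and 16 of 39 in EB (41%; 33.2% of all genes).

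Between the states, 3 members were called with a lower pool ratio in EB and 3 with a higher one, 6 of 39 (15.4%). Of all genes 8.26% were called, 4.65% as lower and 3.61% as higher. Those called lower were all eIF3 subunits, Eif3h, Eif3f and Eif3k. The members called higher were Eif1a, Eif5 and Eif5a. The median difference of the 39 was -0.02 against 0.04 over all genes. With median centring 8 were called higher and 2 lower (15.3% and 21.1% of all genes). On the deposited scale 36 were called higher and 0 lower, where 64.5% of all genes were called. The median there was 1.04 against 0.73 over all genes. Without ESC replicate 2 no member was called relative to all genes, and 11 had an unadjusted p under 0.05 (limma). With all cultures 14 members and 3318 of 13246 genes had one, and all genes were not counted without that culture. The number of members called was 2, 3 and 3 without ESC replicate 1, ESC replicate 3 or EB replicate 1. This comparison uses the same arrays as the within-state ratios above and the single pools below, so their values are given side by side and do not support each other.

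**Figure D3:**
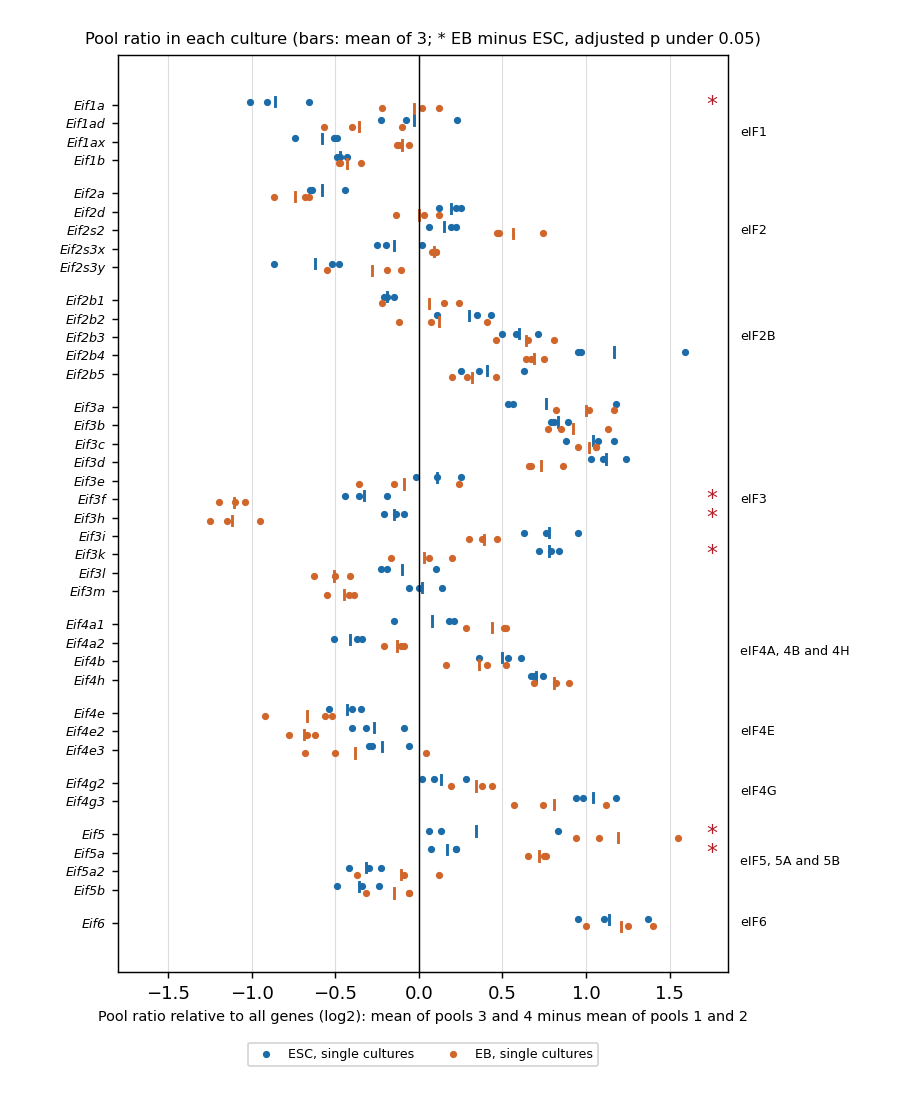
Pool ratio of each initiation factor gene in every culture, relative to all genes (log2; mean of pools 3 and 4 minus mean of pools 1 and 2; blue ESC, orange EB, bars are means of 3 cultures). Asterisks mark the 6 genes whose ratio differs between states with an adjusted p under 0.05: Eif3f, Eif3h and Eif3k shift to the left in EB and Eif1a, Eif5 and Eif5a to the right, each without overlap of the cultures.

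Eif3h, a non-core subunit, had ratios of -0.21, -0.14 and -0.09 in the ESC cultures and of -1.15, -0.95 and -1.25 in EB. The groups lay far apart, and the difference was -0.97 ± 0.16 (adjusted p = 0.0077), a ratio in EB 0.51 times that in ESC. Leaving out ESC replicate 2 gave an adjusted p of 0.0605; under the other 12 alternatives it was called. Eif3f, its MPN-domain partner, had -0.19, -0.36 and -0.44 in ESC and -1.04, -1.20 and -1.10 in EB, a difference of -0.78 ± 0.15 (adjusted p = 0.0146), lost without ESC replicate 1 or 2. Eif3k, a small PCI-domain subunit, had 0.84, 0.72 and 0.79 in ESC and -0.17, 0.20 and 0.06 in EB, a difference of -0.75 ± 0.16 (adjusted p = 0.0182). Here the EB cultures lay near the typical gene and the ESC cultures above it. The call of Eif3k was lost with median centring (-0.35) and without ESC replicate 1, 2 or 3 or EB replicate 1.

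Among the 11 eIF3 subunits, 3 fell, 8 were not called and the median difference was -0.40. Cultures of the states did not overlap for 7 of the 11, all lower in EB, where 30.4% of all genes did not overlap, 13.8% as lower and 16.6% as higher: beside the called genes these were Eif3d (-0.40, adjusted p = 0.135), Eif3i (-0.39, 0.144), Eif3l (-0.41, 0.139) and Eif3m (-0.48, 0.076). Eif3a, Eif3b and Eif3c stood at 0.25, 0.09 and -0.02, and Eif3e at -0.20 ± 0.18 (adjusted p = 0.544). With median centring the subunits' median was -0.09 and 1 was called higher. On the deposited scale all 11 had a higher ratio in EB. The 3 members of 39 not called there were Eif3f at 0.11 (adjusted p = 0.69), Eif3h at 0.12 (0.663) and Eif3k at 0.45 (0.0821). Both scales read the same arrays, so this overlap with the 3 genes called lower gives no separate support. On the deposited scale Eif3h had ratios of -1.0, -0.24 and -0.48 in ESC and -0.43, -0.22 and -0.70 in EB, and the groups overlapped. Eif3h, Eif3f and Eif3k each rest on 1 probe set above the filter. Of the eIF3 starts shown, Eif3f has a pyrimidine run over the start and Eif3k has none of 8 or more. Eif3l, Eif2s3x and Eif2b5, with runs that in Eif3l and Eif2b5 lay mostly before the start, differed by -0.41, 0.24 and -0.10.

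Eif1a had ratios of -0.91, -1.01 and -0.66 in ESC and 0.02, -0.22 and 0.12 in EB. Every EB culture lay above every ESC culture, by 0.83 ± 0.17 on average (adjusted p = 0.0157), a call lost without ESC replicate 1 or 2. Its other probe set gave 0.64. Eif1ax moved by 0.48 ± 0.15 without passing the threshold (adjusted p = 0.0776). Eif5 had 0.83, 0.06 and 0.13 in ESC and 1.55, 0.94 and 1.08 in EB, a difference of 0.85 ± 0.23 (adjusted p = 0.0445); its first ESC culture lay close to the lowest EB culture. Its 5 probe sets all gave a positive difference, from 0.10 to 0.85. The call was lost without ESC replicate 2 or 3, without any 1 EB culture and with no filter. Eif5a, whose protein carries the hypusine residue, had 0.22, 0.22 and 0.07 in ESC and 0.75, 0.65 and 0.76 in EB, 0.55 ± 0.15 (adjusted p = 0.0461), lost without any 1 culture and with median centring. Eif2b5, Eif4e, Eif4g2 and Eif6 differed by -0.10 ± 0.17, -0.24 ± 0.17, 0.21 ± 0.16 and 0.07 ± 0.18 (adjusted p = 0.773, 0.411, 0.46 and 0.847).

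Each pool was also compared between the states relative to all genes of that pool. Counts of higher and lower genes in the single pools are counts of called genes. In pool 1, 6 members were higher and 3 lower in EB, 23.1% called, where 12.7% of all genes were (5.56% higher and 7.13% lower). In pool 2, 1 was higher and 5 were lower, 15.4%, where 6.78% of all genes were called (2.8% and 3.98%). In pool 3, 5 were higher and 7 lower, 30.8%, where 21.2% of all genes were called (9.69% and 11.5%). In pool 4, 9 were higher and 9 lower, 46.2%, where 29% of all genes were called (13.6% and 15.4%). With median centring the split was 5 higher and 4 lower in pool 3 (11.5% and 22.3% of all genes) and 17 higher and 4 lower in pool 4 (21.9% and 37.9%). Pool 2 had 0 calls without ESC replicate 1 or without ESC replicate 2, where 12 and 10 members had an unadjusted p under 0.05 (limma). With all cultures 14 members and 3256 of 13246 genes had one, and all genes were not counted without a culture. Pool 2 had 1 call without ESC replicate 3 or EB replicate 2, and 2 without EB replicate 1. Pool 1 had 5 without ESC replicate 2, and pool 4 had 11 without EB replicate 3.

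**Figure D4:**
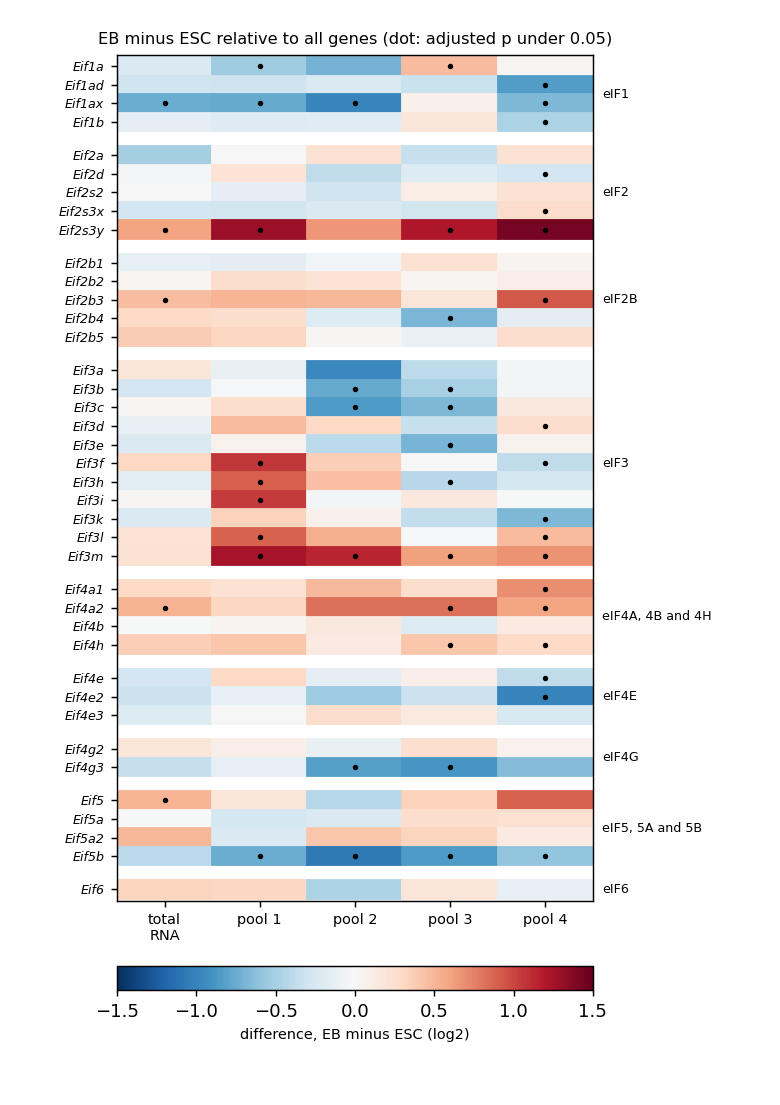
Difference between EB and ESC relative to all genes (log2, colour) in total RNA and in each gradient pool for the 39 tested genes, by factor; dots mark an adjusted p under 0.05. The row of Eif2s3y is red throughout, up to 1.43 in pool 4, that of Eif5b blue throughout, down to -1.07 in pool 2, and 5 eIF3 genes carry dots in pool 1, all higher in EB.

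Of the pool 1 calls, 5 were of eIF3 genes, while the largest difference was that of Eif2s3y (1.29). Eif3m, a PCI-domain subunit, read 8.18, 8.33 and 8.22 in ESC and 9.60, 9.37 and 9.49 in EB, a difference of 1.25 ± 0.09 (adjusted p = 0.00304). Eif3f read 11.23, 11.29 and 11.46 against 12.37, 12.46 and 12.36 (1.07 ± 0.09), Eif3i 9.67, 9.60 and 9.46 against 10.56, 10.68 and 10.65 (1.05 ± 0.08), Eif3h 10.59, 10.55 and 10.66 against 11.51, 11.38 and 11.61 (0.90 ± 0.09). Eif3l differed by 0.88 ± 0.13, which was lost with median centring and with the mean of its probe sets (0.36). So 5 of the 11 eIF3 genes were called higher in pool 1 and 0 were called lower, where 5.56% and 7.13% of all genes were. In pool 3, 1 eIF3 gene was called higher and 4 lower, where 9.69% and 11.5% of all genes were. The 4 differences were -0.70 ± 0.12 for Eif3e, -0.67 ± 0.13 for Eif3c, -0.50 ± 0.12 for Eif3b and -0.42 ± 0.11 for Eif3h, while Eif3m rose by 0.62 ± 0.12. The differences of Eif3m in pools 2, 3 and 4 rest on its chosen probe set, and the mean over its probe sets gave 0.37, -0.09 and 0.13. Eif3c and Eif3b were also lower in pool 2 (-0.85 ± 0.19 and -0.77 ± 0.18), calls lost without any 1 ESC culture or without EB replicate 1 or 2. In pool 2 Eif3m was higher (1.14 ± 0.18). In pool 4, 3 eIF3 genes were called higher and 2 lower, where 13.6% and 15.4% of all genes were. Eif3m, Eif3l and Eif3d rose (0.67 ± 0.10, 0.48 ± 0.12 and 0.28 ± 0.08), and Eif3k and Eif3f fell (-0.67 ± 0.11 and -0.38 ± 0.07). Eif3f was not called there with median centring (-0.13), nor Eif3l with the mean of its probe sets (0.08).

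Outside eIF3, Eif2s3y was called higher in pools 1, 3 and 4, by 1.29 ± 0.15, 1.21 ± 0.13 and 1.43 ± 0.11. In pool 4 it read 7.91, 7.81 and 7.62 in ESC and 9.14, 9.34 and 9.14 in EB. Eif5b, the ribosome-joining GTPase, was lower in all 4 pools, with differences of -0.75 ± 0.14, -1.07 ± 0.20, -0.85 ± 0.15 and -0.59 ± 0.11; in pool 3 it read 8.64, 8.99 and 8.94 in ESC and 7.83, 8.0 and 8.19 in EB. Its difference in total RNA was -0.40 ± 0.13 (adjusted p = 0.096). Eif1ax was lower in pools 1, 2 and 4, with differences of -0.77 ± 0.12, -0.99 ± 0.18 and -0.67 ± 0.09. In pool 4, Eif4e2 read 10.87, 10.73 and 10.76 in ESC and 9.66, 9.86 and 9.84 in EB, -1.0 ± 0.09 (adjusted p = 0.000885), and Eif4e was also lower (-0.38 ± 0.11, adjusted p = 0.0426). Both helicase genes were higher there, Eif4a1 by 0.70 ± 0.09 and Eif4a2 by 0.59 ± 0.13, and Eif2b3 by 0.93 ± 0.09. Eif4a2 was also higher in pool 3 (0.83 ± 0.13), where Eif4g3 was lower (-0.88 ± 0.14; -0.22 over the mean of its probe sets, not called). Of the calls named for single pools, those lost when some single culture was left out were all in pool 2, Eif3l, Eif1ax and Eif5b in pool 1, Eif3b and Eif3h in pool 3, and Eif3d, Eif3l, Eif4e and Eif4a2 in pool 4. On the deposited scale the median shift of all genes was 0.03, 0.36, 0.98 and 0.84 in pools 1 to 4, and that of the members 0.18, 0.27, 1.3 and 1.25.

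Other genes that act on these factors were read from a list of 31 regulators of initiation, of which 29 were tested. In total RNA 3 were called higher and 2 lower, 17.2%, where 12.3% of all genes were called (6.49% higher and 5.84% lower). Ppp1r15a, which directs dephosphorylation of eIF2 alpha, rose by 0.83 ± 0.18, Paip2b, an inhibitor of poly(A)-binding protein, by 0.68 ± 0.13, and Pabpc4, a poly(A)-binding protein, by 0.58 ± 0.10. Eif4ebp2 and Eif4ebp1, which hold eIF4E away from eIF4G, fell by 0.82 and 0.62 on the log2 scale. Eif4ebp2 read 9.81, 9.90 and 9.98 in ESC and 8.95, 9.10 and 9.17 in EB (adjusted p = 0.00797), and it was called under each of its 13 alternatives. The other 4 calls were each lost without ESC replicate 1, without EB replicate 1 and without EB replicate 3. The eIF2 alpha kinase genes Eif2ak1, Eif2ak2, Eif2ak3 and Eif2ak4 differed by -0.12, 0.31, -0.27 and -0.14, with adjusted p from 0.147 to 0.732.

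In the pool ratio, 6 of the 29 regulators were called higher and 2 lower (8.26% of all genes were called, 3.61% higher and 4.65% lower). Their median difference was 0.29 (0.04 over all genes). Abce1, which recycles ribosomes, had ratios of -0.64, -0.76 and -0.52 in ESC and 0.29, 0.05 and 0.20 in EB, 0.82 ± 0.16 (adjusted p = 0.0135), lost without ESC replicate 1 or 2. Bzw1, an eIF5 mimic, rose by 0.76 ± 0.17, and Pdcd4, an inhibitor of eIF4A, by 0.70 ± 0.16. Ddx3x, a helicase of mRNA leaders, Pabpc1 and Gigyf2, the partner of Eif4e2, rose by 0.71 ± 0.19, 0.71 ± 0.17 and 0.56 ± 0.15; with the mean of its probe sets Pabpc1 gave -0.07. Eif4ebp1 fell, from -0.35, -0.49 and -0.65 to -1.45, -1.24 and -1.12 (-0.78 ± 0.16, adjusted p = 0.0179), and Denr, which acts in reinitiation, fell too (-0.66 ± 0.17). Of 12 tested elongation and termination genes, 2 were called higher in the ratio, where 3.61% of all genes were: the release factor genes Etf1 by 0.63 ± 0.16 and Gspt1 by 0.64 ± 0.17. In total RNA 1 of the 12 was called, where 12.3% of all genes were: Gspt1 fell (-0.54 ± 0.10), a call lost without any 1 culture; the mean of its probe sets gave -0.05. Each of these ratio calls was lost without ESC replicate 2, and each except that of Pabpc1 without ESC replicate 1.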

How the data were processed

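RNA of 3 ESC and 3 EB cultures, unfractionated and in 4 gradient pools, was measured on 30 mouse Affymetrix expression arrays from 2.5 ug of RNA each. The deposited values are log2 signals; MAS5 and affy are named in the submitters' processing notes, with no version or role, and further steps are not given in the sources used here. Values were returned to the linear scale, 32 was added and log2 taken again. For the relative scale, the arrays of a fit were quantile normalized. Probe sets whose mean lay in the lowest 40% (under 5.58) were left out, and each gene was read from its probe set with the highest mean. Gene names came from the platform annotation: 34945 probe sets had 1 symbol, 932 several and 9160 none. Of the members' probe sets, 5 end in _x_at and 3 in _s_at, suffixes that mark probes shared with other transcripts.

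Differences were tested with limma 3.58.1 (R 4.3.3; lmFit and eBayes) with Benjamini-Hochberg adjustment over 13246 genes at 0.05; ± is the SE of the fit unless SD is written. The number of arrays limits the precision. The labels call the replicates biological. Probe level intensities were not used. Up to 8 called members in each direction of a comparison were to be named by size of difference, with Eif2b5, Eif3e, Eif3h, Eif4e, Eif4g2, Eif5a and Eif6 regardless; other members are named as parts of their factor. Members, lists and rules were chosen with earlier results of these data known. The scripts were tested on simulated data. Alternatives were median centring, scaling before the offset, an offset of 64, no filter, the mean of a gene's probe sets, a variance trend with robust weighting, a replicate block, and leaving out each culture.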

Additional observations from a re-analysis of the deposited data

Results flagged for a closer look

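The pool ratio of 6 initiation factor genes differed between EB and ESC by the test of the difference itself (limma, relative to all genes, 3 cultures per state). It was lower in EB for Eif3h (-0.97), Eif3f (-0.78) and Eif3k (-0.75), and higher for Eif5 (0.85), Eif1a (0.83) and Eif5a (0.55). These 6 are 15.4% of the 39 tested, where 8.26% of all genes were called. Without ESC replicate 2 no member was called. On the deposited scale 36 members were called higher and 0 lower. The 3 lower genes are subunits of a complex in which Eif3a, Eif3b and Eif3c differed by 0.25, 0.09 and -0.02 without passing the threshold; whether the subunits differ from each other in this was not tested. Groups of 3 cultures were too small for a check on single outlying cultures.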

How the results depend on the processing

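The counts called relative to all genes moved with some settings. In total RNA (5 members) the count was 9 with median centring, 8 with an offset of 64, 3 with no filter, 19 with a variance trend and robust weighting and 1 with a replicate block, and from 1 to 3 when 1 culture was left out. In the pool ratio between states (6) it was 10 with median centring and from 0 to 4 with 1 culture left out. In pool 1 (9) it was 5 with the replicate block and from 5 to 9 with 1 culture left out; in pool 2 (6), 12 with the trend and from 0 to 6; in pool 4 (18), from 11 to 15. The counts within ESC, within EB, in pool 3 and on the deposited scale stayed within 1.5 times under every alternative run. Median centring moved the median of all genes to -0.13 in total RNA and to -0.08 in the pool ratio.

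Of 2158 single gene values under alternatives, 1776 kept direction and side of the threshold, 354 lost their call, 12 gained one and 16 changed sign. The sign changes under median centring were in the pool ratio of Eif2b5 (0.27), Eif3e (0.08) and Eif4e (0.17), in the EB ratio of Eif4a1 (-0.26) and Eif4g2 (-0.11), and in pool 4 of Eif2d (0.03). With the mean of probe sets they were in the pool ratio of Eif4e (0.10) and Pabpc1 (-0.07), in pool 2 of Eif4g3 (0.03) and in pool 3 of Eif3m (-0.09). With 1 culture left out, the total RNA difference of Eif5a ranged from -0.04 to 0.03, the pool ratio difference of Eif2b5 from -0.18 to 0.01 and of Eif6 from -0.03 to 0.19, and that of Eif3h on the deposited scale from -0.09 to 0.29. The cause of these changes was not tested, beyond the loss of samples where a culture was left out.

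Whether the replicate numbers pair the cultures is not given by the labels, and the check over genes was mixed. Deviations from the state means correlated at 0.01, 0.02 and 0.04 in total RNA and at 0.06, 0.09 and 0.02 in the pool ratio (r for numbers 1 to 3), and in none of the value sets tested here did every pair exceed 0.1. In deposited single-pool values every pair did in pool 1 (0.54, 0.32 and 0.34) and pool 2 (0.34, 0.14 and 0.14). In the pool ratio 6 of 6 cultures correlated best with the other state's culture of their own number, in total RNA 5 of 6, and over all sets 3 to 6, a hint from the data only. The tests were therefore kept without the block. With the replicate block 5 members were called in the pool ratio (all but Eif5a), 1 in total RNA (Eif1ax) and 5 in pool 1. A difference in the pool ratio had an SE of at least 0.146 with 3 cultures per state. The smallest difference called among the members was 0.55 (Eif5a), and Eif1ax at 0.48 was not called. A member that was not called may therefore still have shifted.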
